A study of Rattus norvegicus with 12 samples.

Results

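The microglia marker genes examined here are Aif1, Itgam, Cd68, Csf1r, Cx3cr1, C1qa, C1qb, C1qc, P2ry12 and Tyrobp. Their probes were all array probes, controls left out, that carry 1 of these 10 gene names in the scanner files. This gave 13 of 30367 probes, with 2 probes each for Aif1, Itgam and Csf1r and 1 for each of the other 7 genes. All 13 were among the 23796 probes kept by a filter on dim signals. The RNA came from neuron-enriched cultures of cerebellum, prepared from Sprague-Dawley rats of 1 day of age and harvested at 16 days in vitro (DIV). The 6 control arrays held cultures given the solvent alone, and the 6 ACE arrays held cultures given 1 µM acetamiprid, a neonicotinoid insecticide, from 2 DIV on and again at each change of medium. Both groups received dimethyl sulfoxide at 0.001% and grew in a medium with 1% fetal bovine serum for 8 days and in serum-free medium afterwards. Per the study's methods, the cultures of an experiment came from the pooled cells of a litter, so a control and an ACE array with the same replicate number form a pair from 1 lot of cells. Cultures of this kind hold neurons, glia and other cells together, and the values are averages over all of them.

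Microglia are the resident macrophages of the brain. They enter it from the yolk sac early in development, depend on signals through the receptor encoded by Csf1r, and in the young cerebellum clear dying cells and surplus synapses. Several of the 10 genes encode parts of shared machines. The C1qa, C1qb and C1qc chains together form C1q, which starts the classical complement cascade. Itgam encodes CD11b, a chain of complement receptor 3, which takes up targets that complement has tagged. Tyrobp encodes DAP12, an adaptor that passes on signals of Trem2 and related receptors, and Cx3cr1 and P2ry12 encode receptors for fractalkine and for ADP. The product of Aif1, IBA1, binds actin, and that of Cd68 is a protein of the endosomes and lysosomes of phagocytes.

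Since 3 genes had a pair of probes, and since the Cx3cr1 signal rested on a single probe, the probe sequences that bear on these readings are given first, as the scanner files list them and with their rn4 positions. The Itgam probes, at chr1:187385032-187385565 and chr1:187385524-187385583 on the plus strand, share a run of 34 bases, which is in capitals, and then differ.
Itgam probe A_43_P15993: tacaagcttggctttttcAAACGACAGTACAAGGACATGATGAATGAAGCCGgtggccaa
Itgam probe A_64_P023848: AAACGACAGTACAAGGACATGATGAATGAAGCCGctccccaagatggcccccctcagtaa
The Csf1r probes lie 12135 bases apart on the plus strand of chromosome 18, at chr18:57093036-57093095 and chr18:57105231-57105932, and are shown because their readings differed.
Csf1r probe A_64_P351634: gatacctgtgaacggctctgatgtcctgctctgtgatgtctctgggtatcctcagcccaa
Csf1r probe A_44_P257582: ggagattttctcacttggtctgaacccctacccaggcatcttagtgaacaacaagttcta
Of the Cx3cr1 probe A_64_P008406, at chr8:125033728-125033787 on the minus strand, only the last 30 bases are shown. They end in a CA repeat of 22 bases, in capitals.
End of Cx3cr1 probe A_64_P008406: aacagattCACACACACACACACACACACA
The coordinates of Itgam probe A_43_P15993 span 534 bases and those of Csf1r probe A_44_P257582 span 702 bases, both longer than the 60 bases of the probes. The 2 Aif1 probes are 58 bases apart on chromosome 20. The C1qb, C1qc and C1qa probes lie within 15108 bases of the minus strand of chromosome 5, at chr5:155647530-155647589, chr5:155656638-155656697 and chr5:155662578-155662637.

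All 13 probes were well above background on 12 of 12 arrays, and none was saturated. Levels are given as log2 of the processed spot signal after quantile normalisation, where a rise of 1 is a doubling. They compare arrays for a single probe and do not rank genes against each other. A fall in a mixed culture can reflect fewer microglia or less RNA per cell, and these cannot be told apart here. Over the 12 arrays, the 75th percentile of the signal ranged from 1803 to 4384 intensity units, and 75.4 to 91.0% of gene spots were well above background. The control array was at the same place of the slide in every pair and the ACE array at another, so place and exposure cannot be told apart.

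The comparison of control versus ACE (CvA) asked whether exposure changed these markers. None of the 13 probes passed the adjusted threshold of 0.05 in limma with the replicate number as a block (adjusted p 0.143 to 0.989), and the same was true of all 23796 probes, of which 0% passed and the lowest adjusted p was 0.141. At an unadjusted p under 0.05, 4 of the 13 member probes and 16.6% of all probes differed. Higher in ACE at that level were 3 member probes, for Csf1r, Aif1 and Cd68, against 6.9% of all probes. Lower was 1, for Cx3cr1, against 9.73% of all probes. Of all probes at that level 41.5% were higher in ACE, and 19.7% where arrays were only shifted by their 75th percentile. Under that scaling 4 member probes again had an unadjusted p under 0.05. The median difference over the 10 genes was 0.08 on the log2 scale, ACE minus control, beside -0.005 over all probes. No member probe reached a 1.5-fold difference, which 1.72% of all probes did, and the 2 groups of 6 arrays overlapped for every member, while they did not for 0.0126% of all probes. In the plot of marker values by array, most lines between the arrays of a pair are short beside the distance between cultures for Itgam and Cx3cr1, and for C1qa, C1qb and C1qc the line of culture 1 is the longest.

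**Figure D1:**
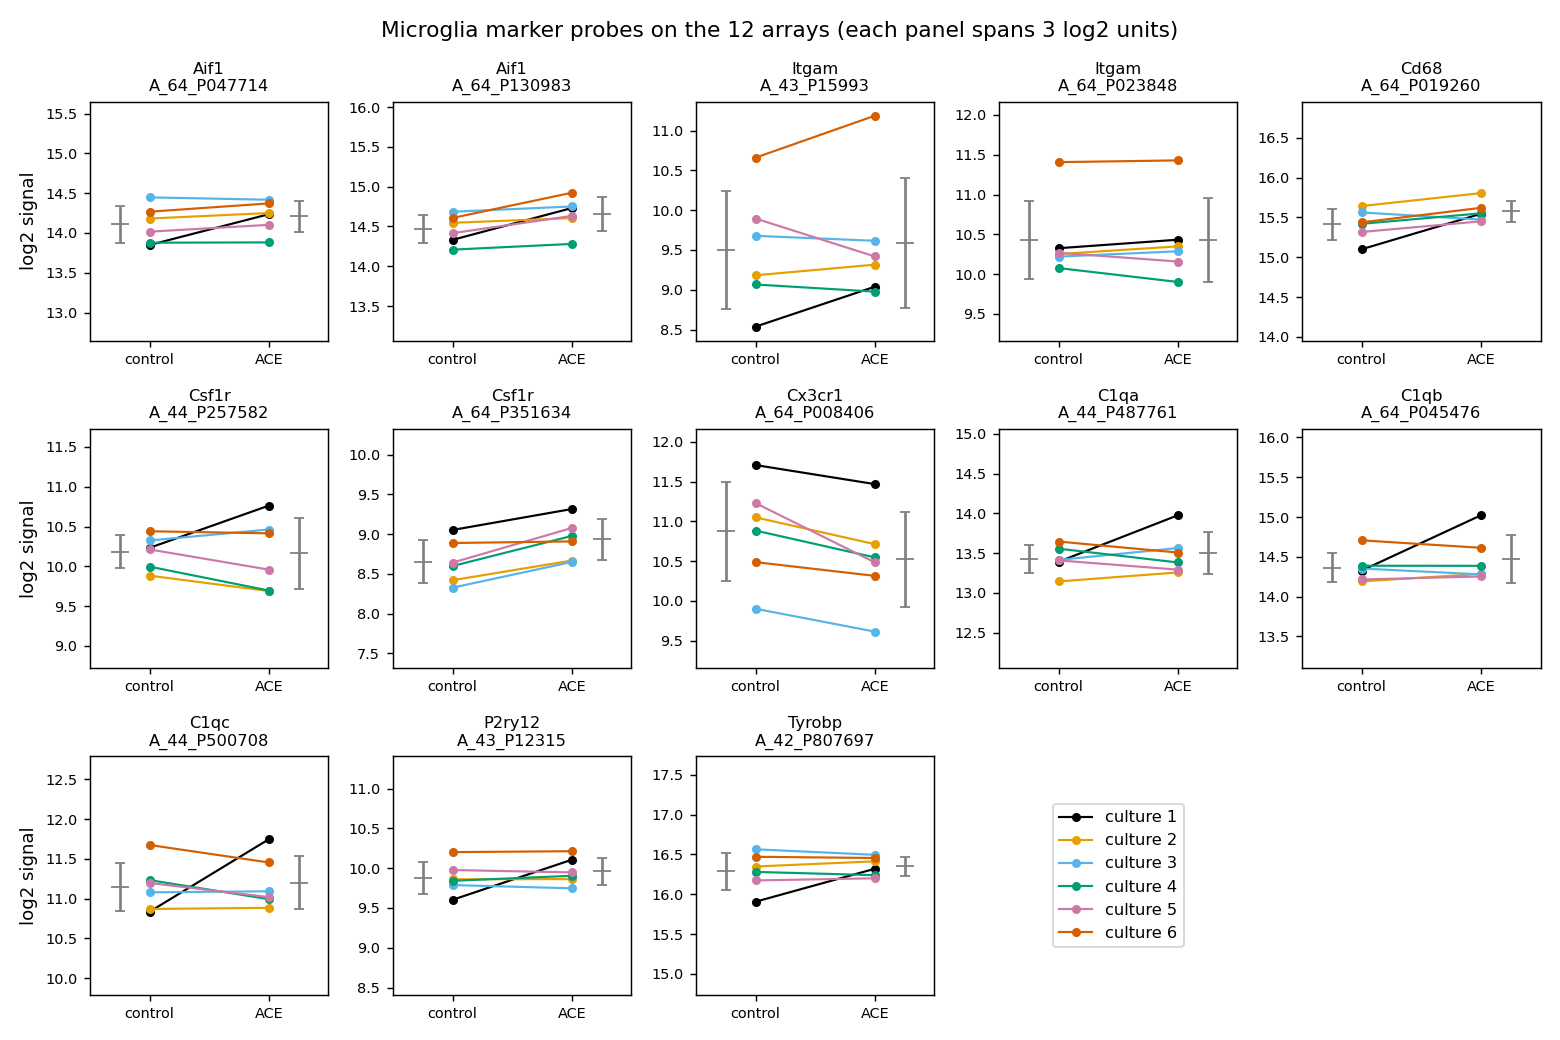
Log2 signal of the 13 microglia marker probes on the 12 arrays, control on the left and ACE on the right of each panel. Coloured lines join the arrays of a culture experiment, grey bars give mean ± SD (n = 6), and each panel spans 3 log2 units. All 6 Cx3cr1 lines fall, and both Itgam probes are highest in culture 6.

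Cx3cr1 had the largest mean difference of the 10 genes, and it was a lower signal in ACE. Its level was 9.90, 10.97 and 11.71 (lowest, median, highest) in control and 9.61, 10.52 and 11.47 in ACE. The ACE array was the lower in all 6 pairs, although the groups overlapped widely because cultures differed by more than the exposure. Every pair was lower for 6.89% of all probes. The mean difference was -0.35 ± 0.08 (SE, 6 pairs), a level 0.783 times that of control, with a 95% interval of -0.53 to -0.17, an unadjusted p of 0.00273 and an adjusted p of 0.147 in limma. Pair 5 had the largest difference, at -0.75, and the other pairs lay between -0.34 and -0.17. Between cultures the level moved by 1.83, with culture 1 highest and culture 3 lowest.

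The CA repeat at the end of the Cx3cr1 probe was then searched on the whole array, a step chosen after the Cx3cr1 values were seen. The run CACACACACACACACA, searched in the probe sequence as listed, occurred in 14 probes, 0.0461% of the 30367. All 14 were lower in ACE on average, with differences from -0.43 to -0.11 and a median of -0.33, beside -0.005 over all probes. In 13 of the 14 every pair was lower. Over the 12 arrays, which include 6 pairs from shared cultures, the Cx3cr1 probe correlated at r = 0.961 (Spearman 0.944) with the mean of the 13 other repeat probes, among them probes named Tmem47, Extl3, Glra2 and Pura, picked after their values were seen. With the mean of the 9 other marker genes its r was -0.25. The repeat probes also shared its pattern within pairs, since their mean fell in all 6 pairs and dropped by 0.63 in pair 5. Of the 10 tested probes that hold the same run on the opposite strand, TGTGTGTGTGTGTGTG, 8 were higher in ACE and 2 lower, with a median of 0.09. Taken singly, the 9 genes correlated with Cx3cr1 at r from -0.76 (Tyrobp) to 0.21 (Csf1r) over the arrays. Over the 6 pair differences r was 0.933 with the mean of the repeat probes, 0.844 with Itgam and 0.147 to 0.333 with the other 8 genes. In level over the arrays, the Cx3cr1 reading thus ran with the other repeat probes and less with the other microglial markers. How much of it came from Cx3cr1 transcripts was not tested.

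**Figure D2:**
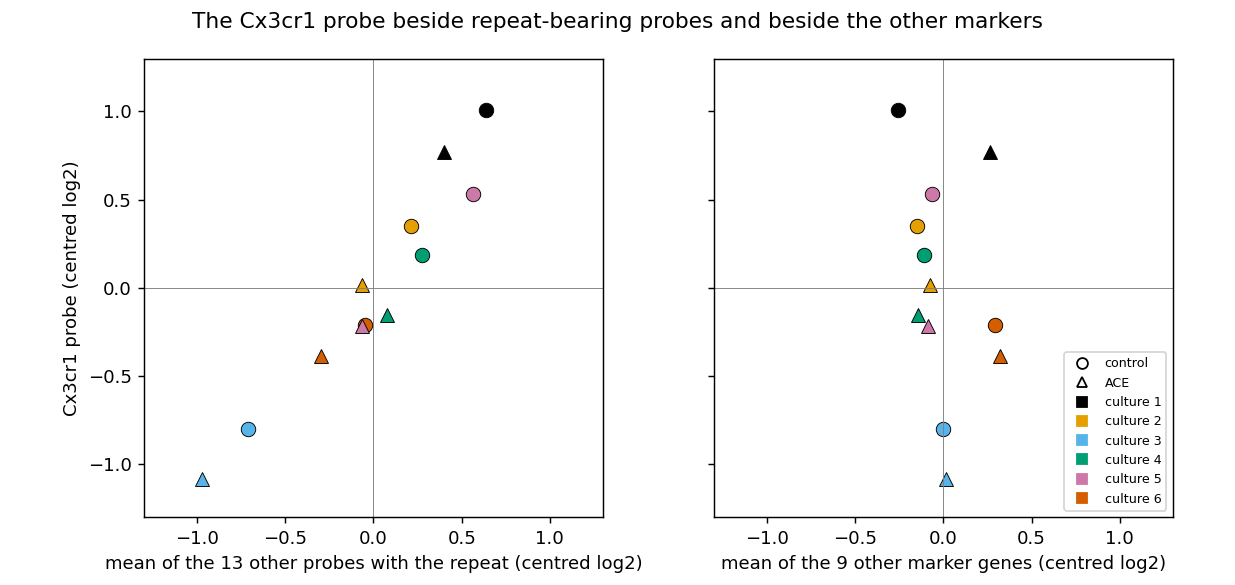
Log2 signal of the Cx3cr1 probe, centred on its mean over 12 arrays, against the centred mean of the 13 other probes with the CA repeat (left) and of the 9 other marker genes (right). Circles are control arrays, triangles ACE arrays, and colours mark the culture experiment. The points follow a line on the left (r = 0.961) and not on the right (r = -0.25).

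The Csf1r probes gave different readings. Probe A_64_P351634 had levels of 8.33, 8.62 and 9.05 (lowest, median, highest) in control and 8.65, 8.94 and 9.32 in ACE. It was higher in ACE in 6 of 6 pairs, as were 4.77% of all probes, by 0.28 ± 0.06 (SE), or 1.21-fold, with an unadjusted p of 0.00198 and an adjusted p of 0.143 in limma. Pair 6 rose by only 0.02 and the other pairs by 0.25 to 0.44. Probe A_44_P257582 had levels of 9.88, 10.22 and 10.44 in control and 9.69, 10.19 and 10.76 in ACE. It was higher in 2 of 6 pairs, and its mean difference was -0.02 ± 0.11 (SE, 95% interval -0.29 to 0.26). Over the 12 arrays the probes correlated at r = 0.294, against 0.901 for the Aif1 probes and 0.839 for the Itgam probes. The gap between the differences of the Csf1r probes was 0.30 ± 0.38 (SD, 6 pairs) and had the same sign in 5 of 6 pairs, with an exact two-sided sign-flip p of 0.156 (0.234 adjusted over the 3 genes with 2 probes). A higher Csf1r level in ACE is thus a reading of 1 probe.

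Aif1 and Cd68 leaned the same way with small sizes. For Aif1, probe A_64_P130983 had levels of 14.21, 14.48 and 14.69 (lowest, median, highest) in control and 14.28, 14.68 and 14.92 in ACE, and was higher in all 6 pairs. Its difference was 0.19 ± 0.06 (SE), or 1.14-fold, with an unadjusted p of 0.0137 and an adjusted p of 0.206 in limma. The neighbouring probe A_64_P047714 was higher in 5 of 6 pairs, by 0.10 ± 0.06 (SE), with an adjusted p of 0.406. Cd68 had levels of 15.10, 15.43 and 15.64 in control and 15.45, 15.55 and 15.81 in ACE. It was higher in 5 of 6 pairs, by 0.16 ± 0.06 (SE), with an unadjusted p of 0.0438 and an adjusted p of 0.287 in limma. Without pair 1 the Cd68 difference was 0.10 with an unadjusted p of 0.0797, and that of Aif1 probe A_64_P130983 was 0.15 with an unadjusted p of 0.0302.

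The 3 C1q chains moved together and were split by pair. C1qa was at 13.14, 13.41 and 13.65 (lowest, median, highest) in control and at 13.26, 13.44 and 13.98 in ACE. C1qb was at 14.19, 14.34 and 14.71 in control and at 14.25, 14.34 and 15.02 in ACE. C1qc was at 10.84, 11.14 and 11.68 in control and at 10.89, 11.06 and 11.75 in ACE. The highest value of each chain was that of ACE array 1. Pair 1 rose by 0.58 for C1qa, 0.69 for C1qb and 0.91 for C1qc, and the other pairs lay between -0.24 and 0.15. Over 12 arrays the chains correlated with each other at r of 0.860 to 0.884. The mean differences over 6 pairs were 0.07 ± 0.10, 0.11 ± 0.11 and 0.05 ± 0.16 (SE), and each chain was higher in 3 of 6 pairs. Without pair 1 these became -0.03, -0.01 and -0.12. In pairs 4 to 6, which were scanned together, the C1qa difference was -0.14 ± 0.04 (SE, unadjusted p 0.0232) and that of C1qc -0.21 ± 0.04 (SE, unadjusted p 0.00765), both with an adjusted p of 0.337 in limma, while C1qb was at -0.02 ± 0.04 (SE, unadjusted p 0.699). In these pairs 13.9% of all probes had an unadjusted p under 0.05. The sign of the C1q difference thus depended on the pairs used.

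Itgam showed little difference between the groups beside the spread of its cultures. Probe A_43_P15993 was at 8.54, 9.43 and 10.66 (lowest, median, highest) in control and at 8.98, 9.37 and 11.19 in ACE. Its pair differences ran from -0.48 to 0.53, and the mean was 0.09 ± 0.14 (SE, 95% interval -0.25 to 0.42). Probe A_64_P023848 was at 10.08, 10.26 and 11.41 in control and at 9.90, 10.32 and 11.43 in ACE, with a mean difference of 0.001 ± 0.05 (SE, 95% interval -0.11 to 0.11). On both probes the highest array of each group was that of culture 6. The product of Itgam is the antigen that the study stained as its microglial marker in these cultures.

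P2ry12 and Tyrobp, a receptor and an adaptor at the microglial surface, differed little. P2ry12 was at 9.60, 9.85 and 10.20 (lowest, median, highest) in control and at 9.75, 9.93 and 10.21 in ACE. Its mean difference was 0.09 ± 0.08 (SE, 95% interval -0.10 to 0.27), higher in 4 of 6 pairs. Tyrobp was at 15.91, 16.32 and 16.57 in control and at 16.20, 16.37 and 16.50 in ACE. Its mean difference was 0.06 ± 0.07 (SE, 95% interval -0.10 to 0.22), higher in 3 of 6 pairs. In both genes pair 1 carried the difference, with a rise of 0.50 for P2ry12 and 0.41 for Tyrobp. Without that pair the differences were 0.001 ± 0.03 and -0.01 ± 0.03 (SE).

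Pair 1 stood apart for the markers as a group. In it 12 of 13 probes were higher in ACE, against 46.7% of all probes, and the only lower one was Cx3cr1. Pair 2 had a similar count, with 11 of 13 probes higher, against 47.4% of all probes. The median difference over the 10 genes was 0.43 in pair 1 and between -0.02 and 0.06 in the other pairs. Pair 1 thus stood apart by the size of its differences. This shows in the plot of pair differences, in which pair 1 is the highest point for 10 of the 13 probes. The arrays of pair 1 differed from the others in scan batch and in the version of the extraction software, which they shared with each other. Pairs 2 and 3 each had a scan batch of their own too, so of these traits only the software version was particular to pair 1. The median difference of all probes in this pair was -0.009. The part of batch and software in the pair 1 result was not tested. Without pair 1 the median difference over the 10 genes was -0.01, and 3 of 13 probes, beside 16.5% of all probes, had an unadjusted p under 0.05, namely Csf1r probe A_64_P351634, Aif1 probe A_64_P130983 and Cx3cr1.

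**Figure D3:**
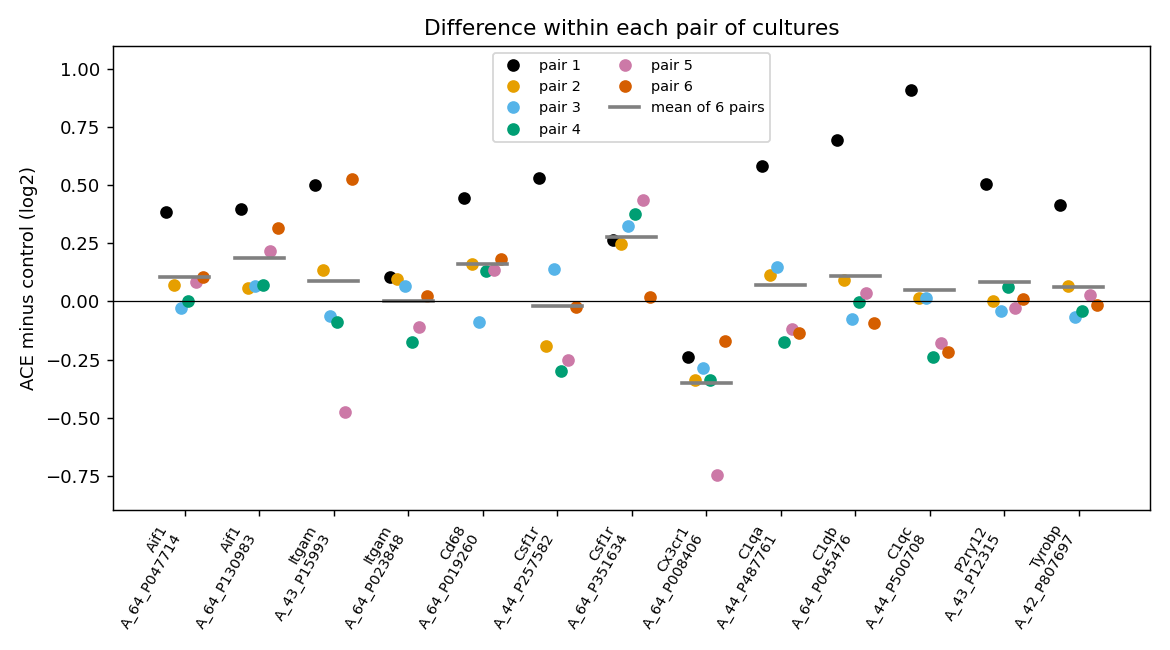
ACE minus control, in log2 units, for each of the 6 pairs (coloured points) and their mean (grey line) at the 13 marker probes. Pair 1 lies at 0.58, 0.69 and 0.91 for C1qa, C1qb and C1qc, and all 6 points lie above 0 for Csf1r probe A_64_P351634 and below 0 for Cx3cr1.

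The design also allowed the spread between culture experiments to be set against the spread within pairs. Each culture had its own slide, and the scan batch differed between some cultures. Culture cannot be told apart here from slide, or from scan batch where that differed. In the moderated F test of limma, 7 of 13 member probes differed between the 6 cultures at an adjusted p under 0.05, beside 84.3% of all probes and 88.5% of those well above background on all arrays. The 7 were both probes of Aif1, Itgam and Csf1r and the probe of Cx3cr1. Cd68 (adjusted p 0.104), C1qa (0.26), C1qb (0.17), C1qc (0.333), P2ry12 (0.139) and Tyrobp (0.0654) did not pass. Some of these calls depended on the processing or on the replicates used. With a replicate left out, the highest adjusted p in this test was 0.105 for Csf1r probe A_44_P257582 and 0.165 for Aif1 probe A_64_P130983. The lowest was then under 0.05 for Cd68 (0.0421), C1qb (0.00742), C1qc (0.00704), P2ry12 (0.00318) and Tyrobp (0.00788). With a shift by the 75th percentile Cd68 (0.00785) and Tyrobp (0.00811) passed, Tyrobp also passed with the deposited values (0.0489) and among probes well above background on all arrays (0.0458), and Csf1r probe A_44_P257582 did not pass without the filter on dim probes (0.0567). The median SD of the culture means was 0.203 for the members and 0.288 for all probes. The median SD of the pair differences was 0.202 for the members and 0.125 for all probes. A pair difference carries more array noise than a pair mean, so each SD compares members with all probes and not cultures with pairs. Within the groups taken singly, the median SD of the member probes was 0.233 over the control arrays and 0.263 over the ACE arrays, beside 0.3 and 0.294 for all probes.

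Itgam and Cx3cr1 had the widest ranges between cultures, at 2.14 for Itgam probe A_43_P15993 (adjusted p 0.00178), 1.83 for Cx3cr1 and 1.43 for Itgam probe A_64_P023848 (adjusted p 0.000113 in limma). Culture 6 stood 1.38 and 0.99 above the mean of the 6 cultures on the Itgam probes. In this culture 9 of the 10 genes were above their own mean, all but Cx3cr1, with P2ry12 at 0.29 and C1qc at 0.39 above it. Cx3cr1 followed another order, with culture 1 at 0.89 above and culture 3 at 0.94 below its mean (deviation -0.94, adjusted p 0.00034). Aif1 was lowest in culture 4, at -0.28 and -0.32 on its 2 probes. The genes that passed thus did not rank the 6 cultures in a common order. Tyrobp and Cd68 had their lowest mean in culture 1, at -0.21 and -0.17, but did not pass. Without replicate 1, 11 of 13 member probes passed, beside 70.7% of all probes. Among the 3 cultures scanned together, 2 of 13 passed (Itgam probe A_64_P023848 and C1qc), beside 8.68% of all probes.

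**Figure D4:**
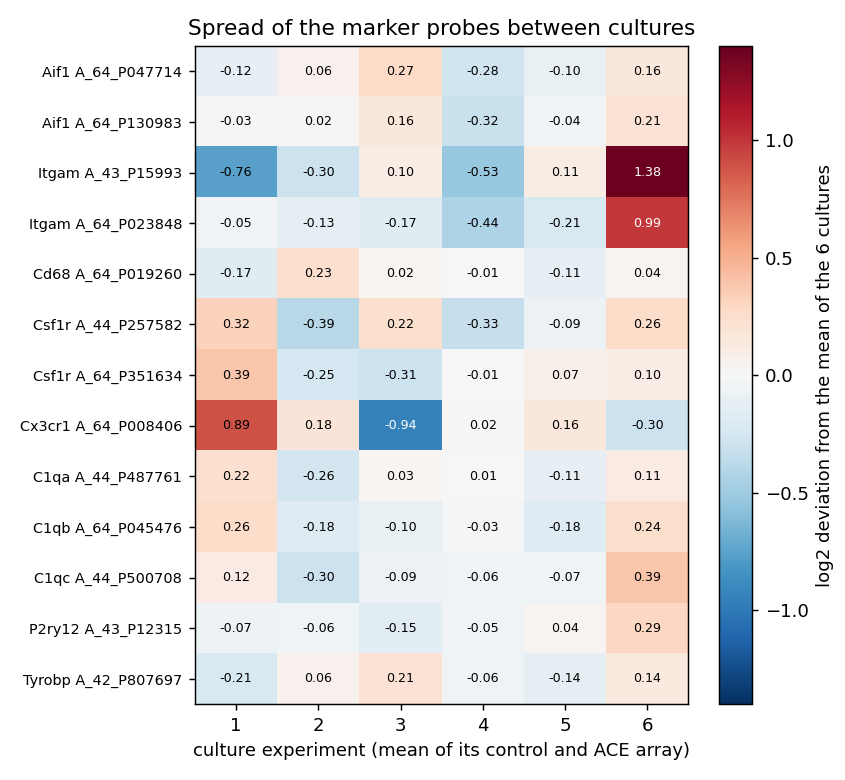
Deviation of each culture experiment (mean of its control and ACE array) from the mean of the 6 cultures, in log2 units, for the 13 marker probes. Red is above and blue below the mean. Culture 6 reaches 1.38 and 0.99 on the Itgam probes, and Cx3cr1 runs from 0.89 in culture 1 to -0.94 in culture 3.

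The genes most like the mean profile of the 10 markers were searched among 20047 probes well above background on every array. The closest 10, by Pearson r over the 12 arrays, were Igsf6 (0.916), Ccl6 (0.894), Dok3 (0.875), Tmem37 (0.867), Arhgef28 (0.859), Ccdc42b (0.854), Tgfbi (0.848), Sdf2l1 (0.844), RT1-CE10 (0.844) and Taf8 (0.843). Igsf6 is an immunoglobulin superfamily gene of myeloid cells, Ccl6 a chemokine, and Dok3 an adaptor of immune receptor signalling. Spearman's rho was lower for each of the 10, from 0.378 for Ccdc42b and 0.399 for Arhgef28 to 0.671 for Ccl6 and 0.685 for Sdf2l1. The 2 arrays farthest from the median of the profile were ACE 1 and ACE 6. Without them r was 0.915 for Igsf6 and 0.875 for Ccl6, and it was lowest for Taf8, at 0.65. Control 6, the partner of ACE 6, was kept. It was at 0.24 on the profile and the other arrays left at -0.15 to -0.01, so r can still rest on control 6. The arrays share cultures in pairs, and these values describe likeness only. In CvA, Igsf6 differed by 0.12 ± 0.09 (SE) and Ccl6 by 0.20 ± 0.14 (SE), with adjusted p of 0.529 and 0.495 in limma.

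Ligands, receptors and partners of the markers formed a list of 20 genes, of which 18 were tested with 24 probes. No probe of it passed the adjusted threshold, 3 were higher in ACE at an unadjusted p under 0.05 and 0 lower, beside 6.9% and 9.73% of all probes, and the median difference over its genes was 0.05. The list mean rose by 0.31 in pair 1 and moved by -0.09 to 0.04 in the other pairs. Without pair 1, 2 probes were higher and 1 lower, and the median was -0.004. Itgb2, the chain that joins CD11b in complement receptor 3, was higher in 6 of 6 pairs, by 0.22 ± 0.06 (SE, adjusted p 0.176 in limma). Entpd1, an enzyme that breaks down ATP and ADP outside cells, was at 0.38 ± 0.12 (SE, adjusted p 0.222). Of the 3 probes of Syk, the kinase below DAP12, A_64_P017329 was at 0.47 ± 0.12 (SE, adjusted p 0.177) and was well above background on 9 of 12 arrays, while the others were at -0.05 and -0.13. The ligands and Trem2 were chosen for mention after their values were seen. The ligands were at -0.07 ± 0.05 for fractalkine (Cx3cl1), 0.02 ± 0.05 for Csf1 and -0.02 ± 0.08 for Il34 (SE), none with an unadjusted p under 0.05. Trem2, the receptor served by DAP12, was at 0.08 ± 0.06 (SE).

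Other genes of microglia and white blood cells gave a further view. Among 27 probes of a list of homeostatic microglia genes, 6 were higher in ACE at an unadjusted p under 0.05 and 0 lower, with a median over genes of 0.10. For this and the lists that follow, the shares of all probes at that level were 6.9% higher and 9.73% lower. Spi1, the transcription factor PU.1 of the myeloid lineage, was higher in all 6 pairs, by 0.30 ± 0.06 (SE, unadjusted p 0.00153, adjusted p 0.143 in limma). Slc2a5, a fructose transporter, was at 0.28 ± 0.06 and Runx1, a transcription factor of blood lineages, at 0.16 ± 0.05 (SE), each higher in 6 of 6 pairs. Of 26 pan-leukocyte probes 5 were higher and 0 lower, with a median of 0.11. Lcp1, an actin-bundling protein, was at 0.19 ± 0.05 and Rac2, a small GTPase, at 0.18 ± 0.05 (SE). Of 29 probes for phagocytic and activated microglia 4 were higher and 1 lower, with a median of 0.06. The lowest unadjusted p values there were those of the protease gene Ctsd, at 0.09 ± 0.03, of Tnf, at 0.14 ± 0.05, and of the chemokine gene Ccl2, at 0.24 ± 0.09 (SE).

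Pair 1 was also the largest rise in these lists. The mean over genes well above background on all arrays rose in pair 1 by 0.31 for homeostatic microglia, 0.36 for pan-leukocyte genes and 0.25 for phagocytic and activated microglia, and in the other pairs it moved by 0.002 to 0.11, -0.06 to 0.14 and -0.09 to 0.10. Without pair 1, 5 of 27 homeostatic, 5 of 26 pan-leukocyte and 2 of 29 phagocytic probes were higher at an unadjusted p under 0.05, beside 6.98% of all probes. The medians over genes were then 0.05, 0.06 and 0.01. These counts describe the lists, and no list probe passed the adjusted threshold with or without pair 1.

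Several of the 10 markers are also made by other macrophages and by white blood cells. Of 15 genes for macrophages of the brain's borders and for monocytes, 8 had a probe well above background on every array. Among these were Siglec1 and, named after their values were seen, Mrc1 and Pf4. Another 2, Clec10a and Cd209f, were well above background on 0 of 12 arrays. The others on the array, also named after their values were seen, were so on 1 (Cd163), 2 (Lyve1, Ccr2) or 4 (F13a1) arrays. The mean over the 8 genes ranged from 10.60 to 11.33 in control and from 10.98 to 11.44 in ACE, and it rose in pair 1 by 0.50. Within this list 2 of 10 probes were higher at an unadjusted p under 0.05, for Ly86 probe A_64_P123622 at 0.32 ± 0.07 and Siglec1 at 0.33 ± 0.09 (SE), and 0 were lower. The other Ly86 probe, A_44_P130898, was at 0.13 with an unadjusted p of 0.142 in limma. Of 15 genes of other blood cells, 3 (Camp, Cd3d and Nkg7) were well above background on every array, and Cd3e, Ms4a1 and Hbb on 0 arrays. Cd3d was at -0.23 ± 0.04 (SE, adjusted p 0.143 in limma) and was lower in all 6 pairs. The part of these cells in the marker values was not tested.

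Markers of the other cell types of the cultures were counted beside the microglial ones. At an unadjusted p under 0.05, 1 of 11 neuron probes was higher (Tubb3), 1 of 17 astrocyte probes lower (S100b), 2 of 14 oligodendrocyte probes higher (Mbp, Mag) and 1 lower (Cnp), 0 of 12 fibroblast probes differed, and 2 of 8 endothelial probes were lower (Cdh5, Vwf). S100b, Mbp, Mag, Vwf and the muscle gene Myh3 each had another probe that did not reach that level. Of 11 skeletal muscle probes 3 were lower (Mb, Myh3, Myog), with a median over genes of -1.04. The muscle list mean differed by -3.52 in pair 2, -1.54 in pair 6 and -0.76 in pair 1, and by -0.29 to 0.06 in the other pairs. In pair 1, where the microglia markers rose, the list means of the other cell types moved by 0.12 for neurons, -0.04 for astrocytes, -0.04 for oligodendrocytes, 0.004 for fibroblasts and 0.01 for endothelial cells. The neuron mean moved further, by 0.16, in pair 2, where the median of the microglia markers was 0.06.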

How the data were processed

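Gene expression was measured in 6 control and 6 ACE cultures with 1-colour oligonucleotide arrays. Per the file headers, the authors extracted the deposited spot intensity with Agilent Feature Extraction (11.0.1.1 for replicate 1, 11.5.1.1 for the others), which subtracts background and removes spatial trends without scaling between arrays. The table of log2 values that the authors deposited was quantile normalised and centred per probe, and served as an alternative. Here the processed intensity was log2 transformed with outlier spots left out, quantile normalised over the 12 arrays and averaged per probe. As in the study's methods, probes above the 20th percentile on at least 7 of 12 arrays were kept, with at least 4 complete pairs. Each probe was tested with limma 3.58.1 in R 4.3.3 (two-sided, replicate as a block, Benjamini-Hochberg over 23796 probes). The replicate numbers come from the labels, and the study drew each number from 1 lot of cells. Deviations from the group means correlated at 0.449 to 0.912 between arrays with the same number and at -0.439 to 0.39 otherwise. Slide and replicate were the same factor. Differences between cultures were tested by the moderated F of the replicate coefficients over 23580 probes with all values. The number of arrays limits the precision.

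The members and gene lists were chosen with earlier results of these data known. Genes were named by a rule: all members, up to 3 genes per list with the lowest unadjusted p under 0.05, and the 10 genes most like the members. A gene that this rule names is not reported here. Those named outside it are stated as such or were picked from counts of 5 or fewer after their values were seen. Gene names are those of the array files. The list genes C4b, Stab1, Hba1, Rbfox3 and Sox9 did not match a name on the array. No rn4 annotation was used, so exon and intron positions are not given. The scripts were tested on simulated data. Plots were made in Python 3.11.15 using matplotlib 3.10.9.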

Additional observations from a re-analysis of the deposited data

Results flagged for a closer look

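In each group of 6 arrays or 6 pair differences, the gap of the most extreme value to its neighbour was set against the whole range, and 11 of 53 such groups exceeded Dixon's 95% critical value for 6 values, where chance gives about 5%. The groups share arrays and cultures and are not independent.

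Culture 6 was the extreme one for Itgam. On probe A_43_P15993 the ACE array of culture 6 was at 11.19, with the next ACE array at 9.62. On probe A_64_P023848 the arrays of culture 6 were at 11.41 in control and 11.43 in ACE, with the next at 10.33 and 10.43. Among the control arrays alone, the mean over the 10 marker genes was also highest in culture 6, at 12.78, with the next at 12.52.

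Pair 1 had the most extreme ACE minus control difference for Aif1 probe A_64_P047714 (0.39), C1qb (0.69), C1qc (0.91), P2ry12 (0.50) and Tyrobp (0.41), with the next pair at 0.10, 0.09, 0.01, 0.06 and 0.06. For Cx3cr1 it was pair 5, at -0.75, with the next at -0.34. Among the control arrays alone, the mean of the phagocytic and activated microglia list was lowest in culture 1, at 12.09, with the next at 12.35.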

How the results depend on the processing

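In all 15 alternatives to the CvA fit, 0 member probes and 0 list probes passed the adjusted threshold, and in 14 of them 3 to 4 member probes and 11.6 to 18.6% of all probes had an unadjusted p under 0.05. The exception was the fit with no replicate block, with 0 members and 81 of all probes (3956 with it). With the replicate block as a random effect, 5 of all probes passed the adjusted threshold, none of them a member. The exact signed-rank test over the pairs, whose smallest p is 0.03125, gave 3 members and 11.6% of all probes at an unadjusted p under 0.05. That p could pass the adjusted threshold only if most probes reached it, so the 0 calls of this test there carry no information. The median difference over the 10 genes ranged from -0.01 to 0.11 when a replicate was left out and was -0.01 in pairs 4 to 6. The differences of Aif1, Cd68, P2ry12, Csf1r probe A_64_P351634 and Cx3cr1 kept their sign in all 14 alternatives that give a difference. In pairs 4 to 6 the sign turned for Itgam probe A_43_P15993 (-0.0133), Itgam probe A_64_P023848 (-0.0877), C1qa (-0.143), C1qb (-0.019), C1qc (-0.212) and Tyrobp (-0.00969). A shift by the 75th percentile turned Itgam probe A_64_P023848 to -0.0090, and the deposited values turned Csf1r probe A_44_P257582 to 0.00284. With a replicate left out, values ranged from -0.0198 to 0.0366 for Itgam probe A_64_P023848, -0.127 to 0.039 for Csf1r probe A_44_P257582, -0.0332 to 0.118 for C1qa, -0.00727 to 0.15 for C1qb, -0.122 to 0.108 for C1qc and -0.00662 to 0.0900 for Tyrobp. The negative C1q and Tyrobp values were those without replicate 1. Among probes with an unadjusted p under 0.05, 41.5% were higher in ACE, 19.7% after the 75th percentile shift and 51.5% with the deposited values. In the culture test 5 to 11 member probes and 70.7 to 84.6% of all probes passed when a replicate was left out, against 7 and 84.3% with all, and 2 passed among the cultures scanned together, where fewer samples were tested. The cause of the other changes was not tested.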
